A study of Mus musculus with 23 samples.

Results

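Blockade of PD-1 was followed in the mammary fat pad of lean mice, in the fat that lay next to a growing breast tumor. The 10 libraries labelled lean were taken, 5 from mice given an anti-PD-1 antibody (BE0146) and 5 from mice given an IgG2a isotype control (BE0089), out of 23 libraries in all. All mice were female C57BL/6J, and every one, controls included, carried an orthotopic tumor grown from 250000 E0771-luciferase cells in 25% matrigel, injected into mammary gland 4. E0771 is a mouse mammary carcinoma line, so every group was a tumor-bearing group. From day 3 after the injection each mouse received 200 µg of antibody in 50 µl into the abdominal cavity every 3 days until day 21, when the tissue was taken. The labels put the lean mice on food with 10% of its energy as fat and the obese mice on food with 60%, eaten from 8 to 26 weeks of age. The treatment text of every sample, lean ones too, speaks only of the high-fat food. The remaining 13 libraries came from obese mice, 5 with IgG2a and 8 with anti-PD-1, and were used to share the estimate of spread and to show what sets the lean tissue apart. Each library has a title of its own and is taken here as 1 mouse, though the labels do not say so outright, and p-values measure the spread between these libraries. The labels name no batch.

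PD-1, encoded by Pdcd1, is an inhibitory receptor on activated T cells. Its ligands PD-L1 (Cd274) and PD-L2 (Pdcd1lg2) sit on tumor, myeloid and stromal cells, and an antibody that blocks the receptor can release T cells to make interferon-gamma, which in turn induces Cxcl9, Cxcl10, antigen presentation genes and Cd274 itself. The mammary fat pad is a depot of fat cells in which the milk ducts are embedded, together with vessels and macrophages, and the inguinal lymph node lies within it. The questions here were what the antibody changed in this tissue and which genes could be bounded around no change.

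The tissue label held in all 10 lean libraries. Fabp4, the fatty acid carrier of fat cells, stood at 14691 ± 4381 TPM (SD, n = 10), a unit that scales transcripts by length, and was the highest nuclear gene outside the mitochondrial-like group described further on. Car3 at 6516 ± 2139.5 and Cfd at 11905 ± 5166 TPM, both abundant in fat cells, were also among the 15 highest genes. The libraries held 49438121 to 77369057 estimated counts with IgG2a and 58307652 to 65465950 with anti-PD-1. Genes with 10 counts or more numbered 14806 in anti-PD-1 4 and 16741 to 18279 in the other lean libraries. Other tissues came along unevenly. A score for B cells (mean log2 CPM of 14 marker genes, where CPM is TMM-scaled counts per megaread) was 5.46 to 7.93 in 7 lean libraries and -1.89 to -0.57 in the other 3, which were IgG2a 5 and anti-PD-1 2 and 4. In those 3 libraries the B cell receptor gene Cd79a was at most 1.79 CPM, against 137 CPM or more elsewhere in lean mice. The summed B cell markers ranged from 412 to 3534 CPM with IgG2a and from 49.8 to 4924 with anti-PD-1. Lymph node stroma genes followed the same split, at -2.01 to -1.44 in the 3 libraries and 3.48 to 5.21 in the 7. A skeletal muscle score was above 4 in IgG2a 1 and 2 and in anti-PD-1 1 and 2 and below 2 in the other 6 lean libraries. The first principal component of the lean libraries (38.6% of the variance) placed anti-PD-1 4 farthest out. In such bulk samples, fewer cells of a type and less RNA per cell cannot be told apart.

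Between the antibodies, no gene reached an adjusted p under 0.05 in the lean fat pad. Of 19882 genes tested with edgeR's quasi-likelihood test, 0 were called (0% higher, 0% lower), and the adjusted p was 1 for every gene. Differences below are therefore given with SEs or 95% intervals of the edgeR fit. At an unadjusted p under 0.05 there were 472 genes (2.37%), of which 158 were higher (0.795%) and 314 lower (1.58%) with anti-PD-1. In 110 genes (0.553%) the 5 anti-PD-1 libraries did not overlap the 5 IgG2a libraries, 36 all higher (0.181%) and 74 all lower (0.372%). The count of called genes was also 0 with log2(TPM + 1) in limma-trend, while DESeq2 called 22, and limma-voom called 1. A fit to the 10 lean libraries alone called 1 gene of 17274 (0.00579%), with 2.49% at an unadjusted p under 0.05 and 55.1% of intervals within the bounds described next. A fit to the 11 libraries with high B cell scores called 0, with 2.18% at an unadjusted p under 0.05. Of the 22 DESeq2 calls, Fkbp5 was the only one with a mean above 5 CPM in lean mice.

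The precision of that comparison varied with expression. A 95% interval of the log2 difference that lay wholly within -1 to 1, which leaves out both a doubling and a halving, was obtained for 7870 genes (39.6%). Among genes with a mean of 10 to 100 CPM in lean mice this held for 5866 of 8260 (71%), and the median half-width of the interval was 0.59 on the log2 scale. Above 100 CPM it held for 1204 of 1750 (68.8%). From 1 to 10 CPM it held for 799 of 4521 (17.7%), and under 1 CPM for 1 of 5351 (0.0187%), where 95% of the intervals reached a 4-fold change. For most transcripts under 1 CPM a change of that size was therefore not detectable at this spread. The 16 cytotoxic and NK cell genes also had wide intervals (median half-width 2.84), though some of them exceeded 1 CPM in lean libraries. Over all genes tested the median log2 difference was -0.04, and 44.1% of the differences lay above 0.

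**Figure D1:**
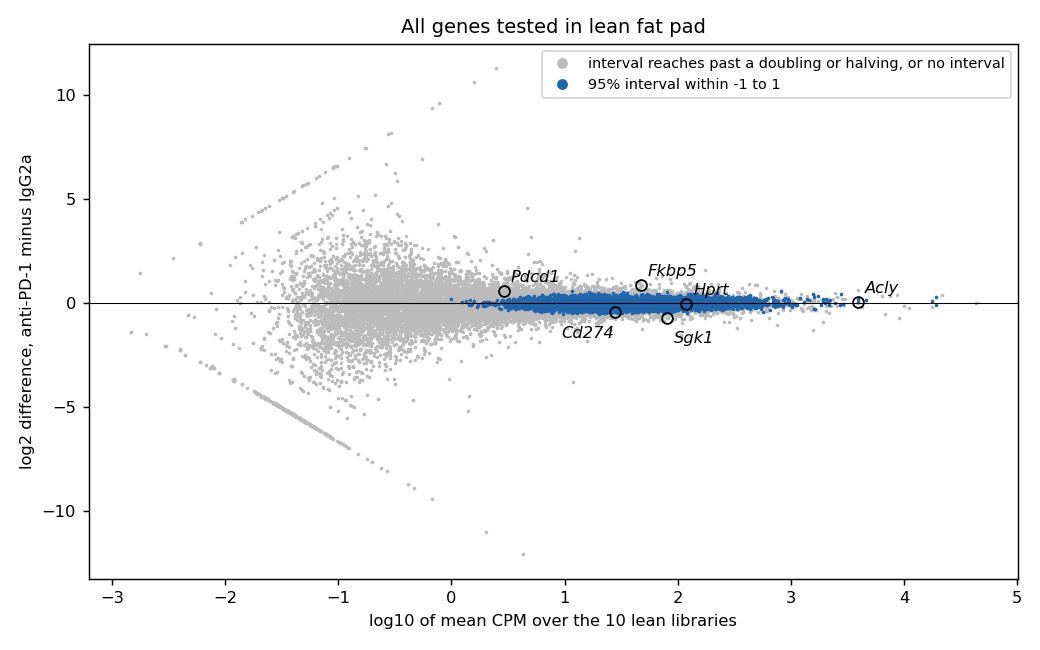
Each point is one of the 19882 genes tested, with the log10 of its mean CPM over the 10 lean libraries on the x axis and the fitted log2 difference (anti-PD-1 minus IgG2a) on the y axis. Blue points are the 7870 genes whose 95% interval lies within -1 to 1, circles mark Pdcd1, Cd274, Fkbp5, Sgk1, Hprt and Acly, and the scatter narrows from left to right.

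The receptor itself was scarce and followed the lymph node genes. Pdcd1 (ENSMUSG00000026285, GRCm38 chromosome 1, 94038305 to 94052553) stood at 1.65, 1.82, 2.43, 5.54 and 0.0445 CPM in IgG2a libraries 1 to 5 and at 8.63, 0.448, 4.73, 0 and 3.64 CPM in anti-PD-1 libraries 1 to 5. The lowest values were those of the 3 libraries with low B cell scores, and the groups overlapped. The count of 0 in anti-PD-1 4 allows up to 0.0574 CPM (3 counts, for counting error only). The log2 difference was 0.60 with a standard error (SE) of 1.72, and it was 0.97 (SE 0.456, 95% interval -0.03 to 1.96) when only the 11 libraries of the series with high B cell scores were fitted, called high-B libraries from here on.

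PD-L1 had the narrowest interval of the 15 PD-1 axis and checkpoint genes. Cd274 (ENSMUSG00000016496, chromosome 19, 29367455 to 29388095) stood at 25.7, 31.0, 38.7, 39.9 and 25.99 CPM with IgG2a and at 27.4, 23.2, 23.3, 19.9 and 24.8 CPM with anti-PD-1. Anti-PD-1 2 to 5 lay below every IgG2a library, and anti-PD-1 1 lay within their range. The log2 difference was -0.44 (SE 0.205, 95% interval -0.87 to -0.02, adjusted p = 1). It was -0.45 (95% interval -0.87 to -0.02) among high-B libraries. Against the obese mice, the difference in antibody effect was -0.41 (95% interval -0.98 to 0.17).

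Other checkpoints of T cells and myeloid cells gave no call either. Entpd1, the ectoenzyme CD39 that degrades extracellular ATP, stood at 17.5, 30.6, 21.8, 17.7 and 24.0 CPM with IgG2a and 27.2, 28.6, 21.9, 39.9 and 38.0 with anti-PD-1. The upper 2 anti-PD-1 libraries exceeded all IgG2a libraries and the remainder overlapped (log2 difference 0.48, SE 0.231, 95% interval 0.00 to 0.96). Vsir, which encodes the checkpoint VISTA, was among the best measured, at 85.1 to 138 CPM with IgG2a and 107 to 135 with anti-PD-1 (0.06, 95% interval -0.46 to 0.59). Lag3 stood at 11.2 to 25.5 CPM and 11.4 to 22.3 CPM (-0.03, SE 0.613). Ctla4 reached 11.5 CPM in IgG2a 4 and was 0 in anti-PD-1 4. Over the 15 genes the differences lay above 0 in 7 and below in 8, with a median of -0.03 and a median half-width of 2.66. Restricted to the high-B libraries, the split was 10 and 5, the median 0.16, and the half-width 0.99. There the interval lay within -1 to 1 for 6 of the 15, where 46.8% of all 20704 genes tested did.

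**Figure D2:**
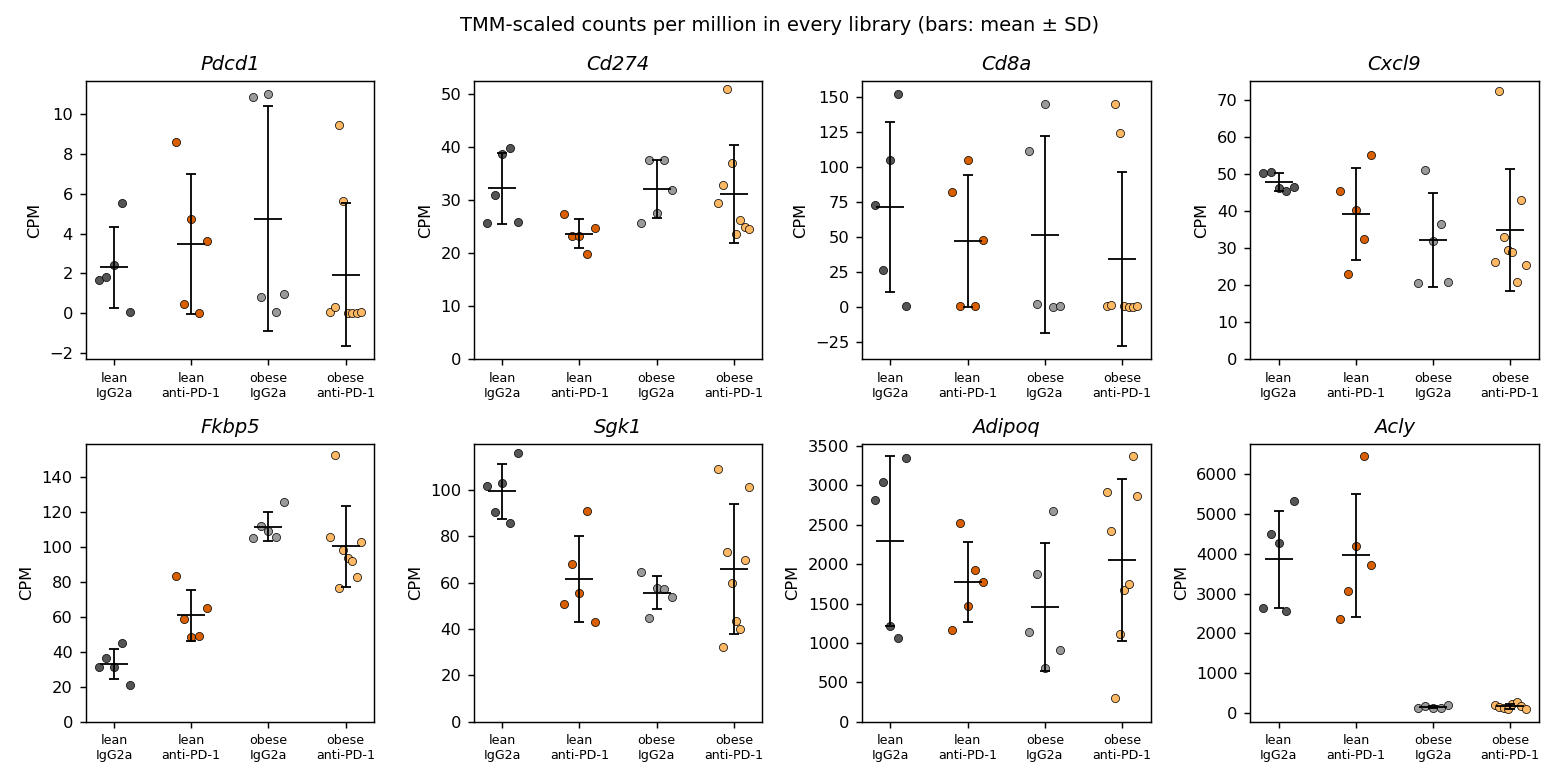
Each panel shows the TMM-scaled CPM of 1 gene on the y axis in every library, by group on the x axis, with the mean and SD as bars. Cd8a and Pdcd1 fall into high and low libraries within every group, Fkbp5 is higher in all 5 lean anti-PD-1 than in all 5 lean IgG2a libraries, Cd274 and Sgk1 are lower in 4 of the 5 with 1 inside the IgG2a range, and Acly is high in all 10 lean libraries.

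T cell genes followed the B cell split of the libraries, within both antibody groups. Cd3e, a chain of the T cell receptor complex, stood at 32.6, 21.5, 45.9, 79.2 and 1.65 CPM with IgG2a and 58.0, 1.97, 46.4, 0.671 and 28.2 with anti-PD-1. Cd8a (ENSMUSG00000053977, chromosome 6, 71373427 to 71379173), the coreceptor of cytotoxic T cells, stood at 73.1, 26.7, 105, 153 and 0.904 and 82.5, 0.931, 105, 1.05 and 48.0 CPM. In both genes IgG2a 5 and anti-PD-1 2 and 4 were near 0 and the other 7 lean libraries were high with overlapping groups. The log2 differences were -0.42 (SE 1.70) and -0.59 (SE 1.79). Among libraries with a high B cell score they were -0.03 (SE 0.377) and -0.20 (SE 0.440).

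As a list, all 18 T cell genes had a difference below 0 (median -0.38, against -0.04 over all genes), with 0 called. That direction rested on single libraries. It became 7 above and 11 below without anti-PD-1 4 (median -0.10), 13 above and 5 below without IgG2a 4 (median 0.10), and 8 above and 10 below in high-B libraries (median -0.02). It was also reversed with voom (0.32) and with the B cell score as a covariate (0.24). The part of lymph node tissue in the list's difference was not tested beyond these fits.

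Granzyme B, perforin and interferon-gamma transcripts were scarce in lean libraries. Gzmb, the granule protease granzyme B, stood at 1.31, 2.04, 1.97, 2.85 and 0.771 CPM with IgG2a and 2.47, 0.879, 1.04, 1.36 and 2.14 with anti-PD-1, which overlapped throughout (log2 difference -0.18, SE 0.694). Prf1, the pore former of killer cells, reached 8.84 CPM in IgG2a 4 and 11.5 CPM in anti-PD-1 1, and was 0 in anti-PD-1 4. Ifng, the cytokine itself, was at or below 0.894 CPM with IgG2a and at most 1.29 CPM with anti-PD-1, and was 0 in IgG2a 5 and anti-PD-1 2 and 5. Among 16 cytotoxic and NK cell genes, 3 differences lay above 0 and 13 below (median -0.41), or 7 and 9 (median -0.09) among high-B libraries. No interval of the 16 lay within -1 to 1 in either fit. The 8 regulatory T cell genes gave 1 above and 7 below (median -0.30), and 5 and 3 (median 0.10) in high-B libraries. Foxp3, their lineage factor, had a difference of -0.43 (SE 1.47), or -0.02 (SE 0.558) in those libraries.

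Genes induced by interferon-gamma had narrower intervals than the cytotoxic and NK cell genes, with median half-widths of 0.99 and 2.84. Cxcl9, the chemokine that recruits CXCR3-bearing T cells, stood at 50.2, 50.4, 46.3, 45.4 and 46.6 CPM with IgG2a and 45.3, 22.8, 40.3, 32.4 and 55.2 with anti-PD-1. The IgG2a libraries lay within a narrow band. Anti-PD-1 1 to 4 lay below it, library 1 only just, and anti-PD-1 5 lay above it. The log2 difference was -0.29 (95% interval -0.91 to 0.34), so a doubling lay outside the interval.

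Cxcl10 was lower in level, at 3.02 to 15.5 CPM and 0.614 to 10.2 CPM (-0.75, SE 0.609). Ido1, an interferon-induced enzyme that breaks down tryptophan, stood at 57.4, 94.8, 49.7, 60.7 and 35.3 and 46.7, 149.7, 148, 110.3 and 119 CPM. Anti-PD-1 2 to 5 exceeded all IgG2a libraries and anti-PD-1 1 lay below 4 of them (0.95, SE 0.833, 95% interval -0.78 to 2.67). Of the 20 interferon-gamma-induced genes, 8 differences were above 0 and 12 below (median -0.04). Of their intervals 7 lay within -1 to 1, against 39.6% of all genes tested.

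MHC class I presentation genes were closely measured, and class II genes were not. B2m, the light chain of MHC class I, stood at 2207, 2408, 2169, 2101 and 2402 CPM with IgG2a and 2249, 2174, 2033, 2223 and 1899 with anti-PD-1. The groups overlapped and each spanned a small range. The log2 difference was -0.09 (95% interval -0.53 to 0.35). The heavy chain gene H2-K1 stood at 2065 to 2888 CPM and 2178 to 2709 CPM and differed by 0.00 (SE 0.347). The H2 genes resemble each other closely, so how reads were divided among them is uncertain. Of 12 class I presentation genes, 8 had an interval within -1 to 1 (all 12 among high-B libraries), with a median of -0.10. The 9 class II genes had a median of -0.02, and none of their intervals lay within those bounds.

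Type I interferon-induced genes rested on 1 library. Ifit3, an antiviral effector, stood at 19.6, 67.5, 42.4, 35.2 and 29.6 CPM with IgG2a and 24.0, 202, 24.1, 56.7 and 62.9 with anti-PD-1. Anti-PD-1 2 stood far above the other 9 lean libraries, which overlapped (0.93, SE 0.464, 95% interval -0.03 to 1.89). Over 20 such genes 16 differences lay above 0 (median 0.25). Without anti-PD-1 2 it was 7 above and 13 below (median -0.16), and among high-B libraries 4 above and 16 below (median -0.39).

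Macrophage, granulocyte and complement genes gave no call, and several of their differences rested on single libraries. Of 15 macrophage genes, 8 had an interval within -1 to 1, with a median difference of -0.11. C1qc, a subunit of complement C1q made by macrophages, differed by -0.26 (SE 0.292). The lipid-associated macrophage genes had a median of 0.12. Among them Lgals3, which encodes galectin-3, was 418 CPM in anti-PD-1 2 against 69.8 to 122 CPM in the other 9 lean libraries (0.90, 95% interval 0.08 to 1.73), and 0.09 among high-B libraries. Mmp9, a matrix protease of neutrophils, stood at 6.26, 10.2, 11.5, 4.59 and 21.1 CPM with IgG2a and 1.78, 2.52, 7.65, 5.85 and 6.30 with anti-PD-1, with overlap (-1.15, SE 0.487, 95% interval -2.16 to -0.14). Ltf, lactoferrin of neutrophil granules and milk, stood at 70.0, 189, 56.1, 59.9 and 55.7 and 81.8, 157, 132, 248 and 229.8 CPM (0.98, SE 0.421, 95% interval 0.11 to 1.85). In complement, 10 of 12 differences lay below 0 with a median of -0.29. C1s1, a protease of the classical pathway, stood at 131, 143, 113, 121 and 198 and 109, 106, 124, 75.7 and 91.8 CPM, lower in all anti-PD-1 libraries but library 3 than in any IgG2a library (-0.48, SE 0.223, 95% interval -0.95 to -0.02).

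Among genes higher with anti-PD-1 and at 1 CPM or more, the smallest p was that of Fkbp5 (ENSMUSG00000024222, chromosome 17, 28399094 to 28517527), a chaperone of steroid receptors that glucocorticoids induce. It stood at 31.4, 36.6, 31.2, 44.8 and 20.9 CPM with IgG2a and 83.5, 58.6, 48.3, 48.8 and 65.0 CPM with anti-PD-1. All 5 anti-PD-1 libraries exceeded all 5 IgG2a libraries. The log2 difference was 0.88 (SE 0.201, 95% interval 0.47 to 1.30), with an adjusted p of 1. DESeq2 gave it an adjusted p of 0.0114 with a difference of 0.90. It was 0.84 (95% interval 0.40 to 1.29) among high-B libraries. In obese mice, where Fkbp5 stood at 105 to 126 CPM with IgG2a and 76.3 to 153 CPM with anti-PD-1, the antibody difference was -0.15 (SE 0.181). The difference between both effects was 1.03 (95% interval 0.47 to 1.59, adjusted p = 0.396).

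Other glucocorticoid-responsive genes did not move one way. Sgk1, a kinase induced by mineralocorticoids and glucocorticoids, stood at 102, 90.7, 103, 85.6 and 116 CPM with IgG2a and 50.6, 68.2, 55.4, 90.7 and 42.8 with anti-PD-1. Anti-PD-1 1, 2, 3 and 5 lay below all IgG2a libraries and anti-PD-1 4 lay among them. The log2 difference was -0.69 (SE 0.274, 95% interval -1.26 to -0.12), or -0.96 (95% interval -1.32 to -0.60) among high-B libraries.

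Tsc22d3, which encodes the glucocorticoid-induced leucine zipper, stood at 199, 93.8, 144, 166 and 107 and 143, 66.5, 75.2, 58.7 and 72.3 CPM, lowest in anti-PD-1 2 to 5 (-0.77, SE 0.337, 95% interval -1.47 to -0.08). Zbtb16, a transcription factor gene that glucocorticoids raise, stood at 13.0, 22.1, 15.2, 8.33 and 20.8 and 13.4, 56.4, 26.8, 35.5 and 51.9 CPM, with overlap (1.21, SE 0.699, 95% interval -0.24 to 2.66). Of the 14 immediate-early and glucocorticoid-responsive genes 6 differences lay above 0 and 8 below, with a median of -0.03. Only Fkbp5 of the 14 had groups that did not overlap, where 0.553% of all genes did.

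Further genes of small p were spread over many functions. Spsb1 (ENSMUSG00000039911, chromosome 4, 149896283 to 149955043), a substrate adaptor of ubiquitin ligases, stood at 24.5, 24.1, 33.1, 21.7 and 30.2 CPM with IgG2a and 19.9, 14.7, 20.8, 10.9 and 16.04 with anti-PD-1. The groups did not overlap, all anti-PD-1 libraries being lower (-0.70, SE 0.250, 95% interval -1.21 to -0.18). Sphk2, a sphingosine kinase, stood at 47.4, 41.5, 41.3, 48.5 and 41.5 and 35.9, 40.5, 34.5, 27.3 and 33.6 CPM, all anti-PD-1 libraries lower (-0.36, SE 0.121, 95% interval -0.61 to -0.11). Unc45a, a myosin chaperone, stood at 45.3, 55.1, 51.2, 46.3 and 44.4 and 54.8, 60.4, 61.5, 64.7 and 71.4 CPM, where IgG2a 2 and anti-PD-1 1 were in each other's range (0.37, SE 0.122, 95% interval 0.12 to 0.62).

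Tmed3, of the vesicle transport machinery, had a difference of 0.81 (SE 0.264), Fbxl19 of 0.62 (SE 0.215) and Colca2 of -1.60 (SE 0.499). Ccdc34 differed by 0.86 (SE 0.275), with anti-PD-1 4 at 40.3 CPM and the other anti-PD-1 libraries at 11.2 to 17.7 CPM. None of these was past an adjusted p of 0.05.

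Among genes lower with anti-PD-1 and at 1 CPM or more in lean mice, the smallest p belonged to a histone H3 gene, and its values are uncertain. Hist2h3c1 (ENSMUSG00000093769, chromosome 3, 96246685 to 96248509) was given 237, 328, 207, 209 and 256 estimated counts in IgG2a libraries 1 to 5 and 0 in all 5 anti-PD-1 libraries. It has near-identical copies in the same cluster, Hist2h3b and Hist2h3c2. Summed over the 3 copies, the counts were 601, 838, 489, 599 and 744 with IgG2a and 319, 638, 415, 372 and 382 with anti-PD-1, and the groups overlapped. Across the 23 libraries Hist2h3c1 was at 0 in 15 and at 193 to 328 counts in the others, with no value between. The single calls of voom (adjusted p = 3.1e-05) and of a fit to the 10 lean libraries alone (adjusted p = 0.0143) were both this gene. How the reads were divided among the copies cannot be checked from these files.

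Fat cell genes lay slightly lower with anti-PD-1 without passing the test. Adipoq, the fat cell hormone adiponectin, stood at 2812, 3045, 1219, 1057 and 3349.9 CPM with IgG2a and 1164, 2518, 1472, 1929.7 and 1778 with anti-PD-1, in overlapping groups (-0.37, SE 0.489). Lep, encoding leptin, stood at 118, 259, 218, 87.3 and 396 and 83.3, 319, 96.3, 79.1 and 79.3 CPM. Anti-PD-1 1, 4 and 5 lay below every IgG2a library, anti-PD-1 3 lay just above the lowest of them, and anti-PD-1 2 lay in the upper part of their range. Leptin transcripts differed by -0.71 (95% interval -2.22 to 0.79), and -1.01 (95% interval -1.95 to -0.07, adjusted p = 1) among high-B libraries. All 16 adipocyte genes had a difference below 0 (median -0.26), with 0 called and 3 intervals within -1 to 1. All 16 were also below 0 among high-B libraries (-0.33), and 11 of 16 without anti-PD-1 1 (-0.12) or without IgG2a 5 (-0.10). Plin1, the lipid droplet coat protein, differed by -0.29 (SE 0.526).

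Cfd, the serine protease adipsin, was 14782 to 15309 CPM in IgG2a 1, 2 and 5 and 4551 to 9075 CPM in the other 7 lean libraries (-0.72, SE 0.584). Adrb3, the beta-adrenergic receptor of fat cells, stood at 446, 487, 300.0, 217 and 775 CPM with IgG2a and 239, 256, 298, 264 and 282 with anti-PD-1 (-0.73, SE 0.402, 95% interval -1.57 to 0.10). The anti-PD-1 libraries clustered at the lower end of the broad IgG2a range.

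Lipid synthesis was high in every lean mouse under either antibody. Fasn (ENSMUSG00000025153, chromosome 11, 120805846 to 120824547), the fatty acid synthase, stood at 16225, 21946, 20676, 9897 and 26163 CPM with IgG2a and 10656, 17622, 17115, 20869.9 and 16934 with anti-PD-1. The groups overlapped and each had a broad range (-0.19, SE 0.716). Acly (ENSMUSG00000020917, chromosome 11, 100476353 to 100528000), which makes cytosolic acetyl-CoA for that synthesis, stood at 2626, 4506, 4269, 2559.5 and 5329 and 2359, 3075, 4199.8, 6449 and 3715 CPM. Its log2 difference was 0.04 with a 95% interval of -0.65 to 0.72. Srebf1, the transcription factor that drives these genes, differed by -0.40 (SE 0.245) and Scd1, the stearoyl-CoA desaturase, by -0.01 (SE 0.713). Of the 19 synthesis genes 9 differences lay above 0 and 10 below (median -0.01), with 5 intervals within -1 to 1, or 12 of 19 among high-B libraries.

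Heat-producing fat cell genes were variable in lean mice. Ucp1, the uncoupling protein, stood at 603, 6.34, 77.4, 223 and 18.3 CPM with IgG2a and 209, 233, 32.5, 62.6 and 147 with anti-PD-1. The IgG2a libraries held both the highest and the lowest value (-0.44, SE 1.28). Cidea, a lipid droplet protein of brown and beige fat, stood at 623, 119, 217, 279.6 and 192 and 324, 354, 183, 369 and 411 CPM (0.20, SE 0.423). Ppargc1a, the coactivator of mitochondrial genes, stood at 12.3, 10.3, 9.72, 5.57 and 10.3 and 4.08, 5.53, 6.18, 2.44 and 5.92 CPM, with only the lowest IgG2a library inside the anti-PD-1 range (-0.999, SE 0.504, 95% interval -2.04 to 0.04). The 14 thermogenic genes tested had a median of -0.10.

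Of the 43 lists, respiratory chain, fatty acid oxidation and widely expressed genes had the narrowest median intervals. Precision also rose with expression, as 71% of all genes at 10 to 100 CPM and 68.8% above 100 CPM had an interval within -1 to 1. Of 22 respiratory chain genes 19 had an interval within -1 to 1, against 39.6% of all genes, with a median difference of -0.05 and a half-width of 0.50. Uqcrc2, a core subunit of complex III, stood at 360.0, 306, 279.9, 248 and 324 CPM with IgG2a and 219, 298, 275, 312 and 284 with anti-PD-1, in overlapping groups (-0.13, 95% interval -0.48 to 0.22). Of 15 fatty acid oxidation genes 13 were so bounded. Of the 15, 4 differences lay above 0 and 11 below, and the highest was that of Cpt1a (ENSMUSG00000024900, chromosome 19, 3322334 to 3385733), which carries fatty acids into mitochondria, at 41.1, 42.1, 39.3, 40.7 and 41.3 CPM with IgG2a and 49.6, 67.1, 57.9, 45.8 and 56.1 with anti-PD-1. Its groups did not overlap, all anti-PD-1 libraries being higher (0.44, SE 0.198, 95% interval 0.03 to 0.85).

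In insulin signaling 9 of 13 genes were bounded. The narrowest of them was Akt1, the kinase that relays the insulin signal, at 122, 143, 119, 142 and 114 and 139, 158, 107, 116 and 132 CPM (0.03, 95% interval -0.26 to 0.31). Hprt, a common reference gene, stood at 104 to 131 CPM and 110 to 122 CPM (-0.03, 95% interval -0.42 to 0.36). Of 16 reference genes 11 were bounded with a median of -0.02, where 71% of all genes at 10 to 100 CPM and 68.8% above 100 CPM were. In cholesterol synthesis it was 8 of 17, in the circadian clock 7 of 14, and in endothelium 7 of 12. By contrast 0 of 14 B cell, 0 of 18 T cell, 0 of 13 muscle and 0 of 20 matrix genes were bounded.

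**Figure D3:**
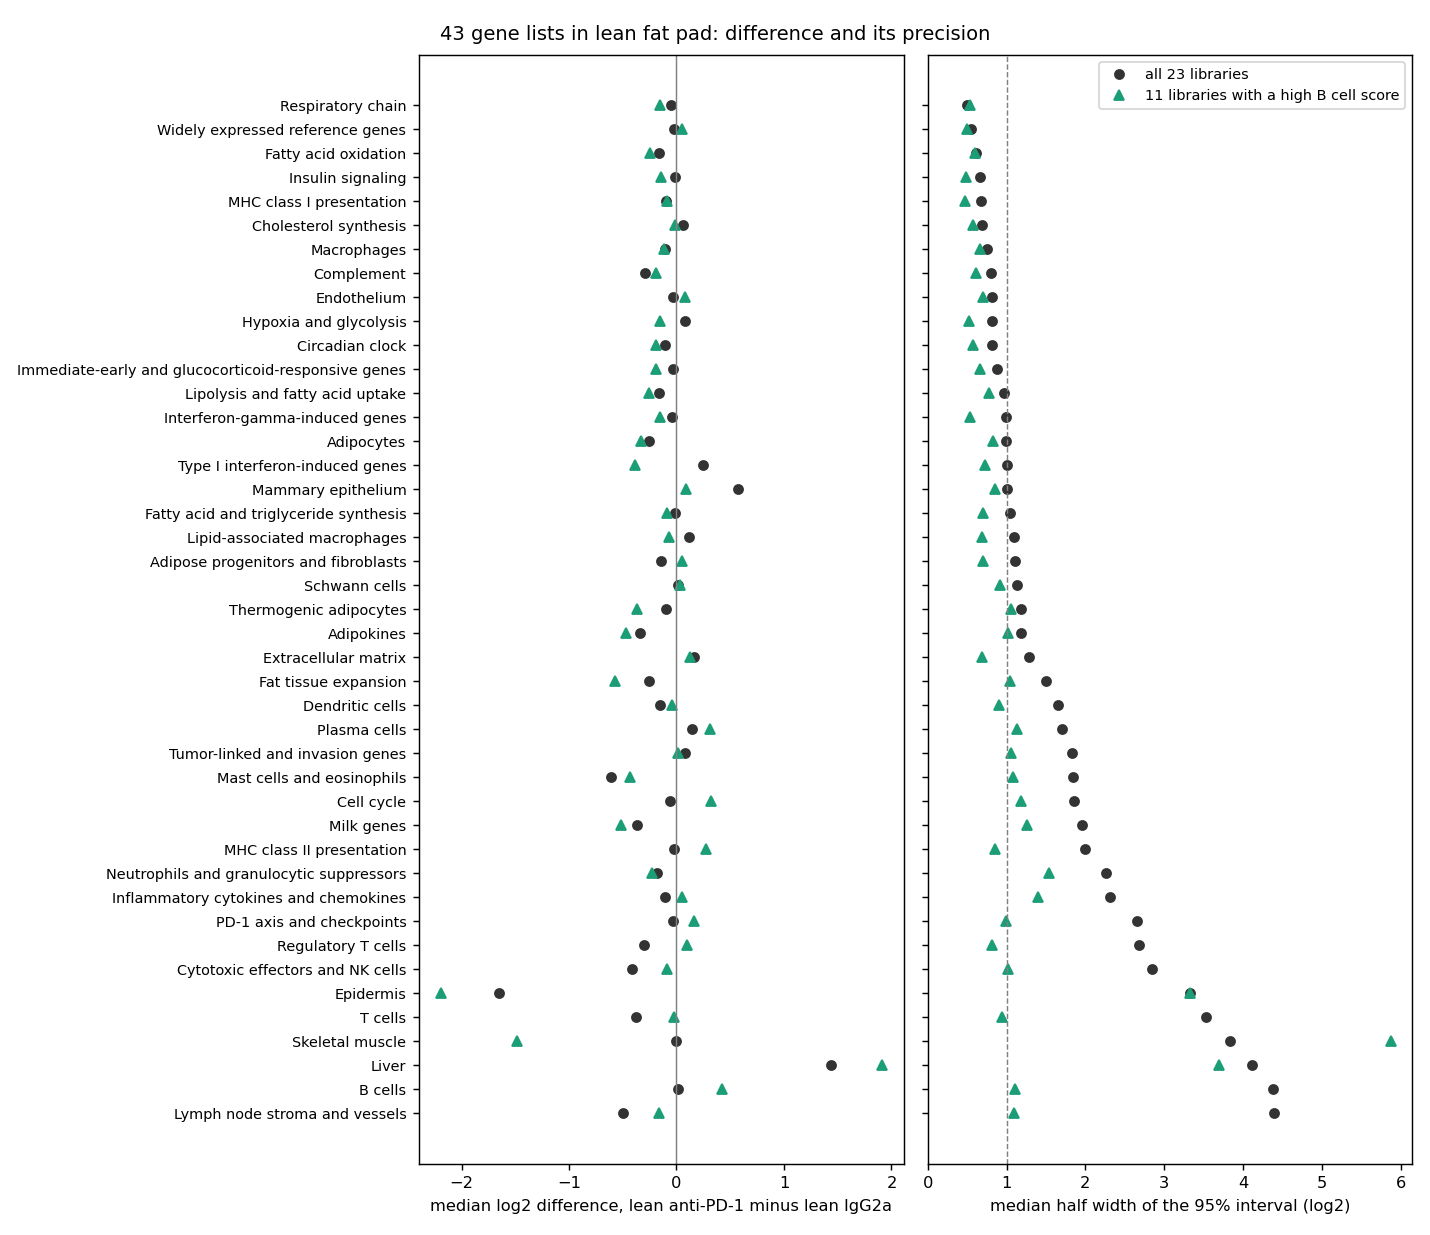
For 43 gene lists in rows, the left panel shows the median log2 difference (anti-PD-1 minus IgG2a, x axis) and the right panel the median half-width of the 95% interval (x axis), for all 23 libraries and for the 11 high-B libraries. The PD-1 axis, T cell, B cell and lymph node lists have half-widths of 2.66 or more in all libraries and of 1.11 or less among high-B libraries, while the respiratory chain lies at 0.50.

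Duct and matrix genes varied with single libraries. Krt8, a keratin of luminal epithelium, stood at 321, 426, 239, 307 and 197 CPM with IgG2a and 199, 1046, 356, 645 and 569 with anti-PD-1. Anti-PD-1 2, 4 and 5 exceeded all IgG2a libraries and anti-PD-1 1 was the second lowest of the 10 (0.92, SE 0.451, 95% interval -0.01 to 1.85). Krt19 stood at 516, 534, 374, 411 and 417 and 407, 1298, 482, 976 and 573 CPM (0.73, SE 0.379, 95% interval -0.05 to 1.52). Of 16 epithelial genes 15 differences lay above 0 (median 0.57), or 11 (median 0.09) among high-B libraries. The list score was 6.26 to 7.38 in the 3 lean libraries with low B cell scores, 2 of them anti-PD-1, and 5.52 to 6.94 in the other 7, and the part of this in the difference was not tested.

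Of 20 matrix genes, 16 differences lay above 0 (median 0.16), and 6 did without anti-PD-1 2 (median -0.11). Col12a1, a fibril-associated collagen, was 20.7 CPM in that library and 1.77 to 6.96 CPM in the other 9 (1.37, 95% interval 0.19 to 2.54). Pi16, a marker of adventitial fibroblasts, was 60.1 CPM in anti-PD-1 4 and 3.84 to 7.32 CPM elsewhere (1.47, 95% interval 0.12 to 2.81), or 0.06 among high-B libraries. Muscle genes differed by a median of 0.00 with a half-width of 3.84. Ckm, the muscle creatine kinase, ranged from 0.149 to 574 CPM with IgG2a and from 0 to 461 CPM with anti-PD-1.

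Against the 13 obese libraries, with both antibodies averaged, many lipid synthesis and oxidative genes were higher in the lean fat pad. The lists were chosen with earlier results of these data known, so their counts describe these libraries only. In that comparison 3731 genes were called (18.8%), 1621 higher in lean (8.15%) and 2110 lower (10.6%), and the median log2 difference over all genes was -0.12. An unadjusted p under 0.05 was reached by 31.3%, and 41% of the intervals lay within -1 to 1. In fatty acid and triglyceride synthesis 17 of 19 genes were higher in lean mice and 0 lower, with a median of 2.89. All 22 respiratory chain genes were higher, with a median of 1.28, as were 10 of 14 thermogenic, 11 of 15 fatty acid oxidation and 10 of 17 cholesterol synthesis genes. Across the 35 fits run, with other scalings, filters, covariates and left-out libraries, the count of higher genes ran from 14 to 19 for synthesis, 21 to 22 for the respiratory chain and 9 to 13 for thermogenic genes, with up to 1 thermogenic gene lower. It ran from 6 to 14 for fatty acid oxidation, with 1 to 2 lower, and from 7 to 15 for cholesterol synthesis, with up to 3 lower. The medians of all 5 lists were above 0 in each fit. Without such changes to the fit, skeletal muscle and epidermis genes had medians of 4.36 and 3.83, above those of the 5 lists.

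The levels of 3 genes that differed strongly between lean and obese libraries are given here. Slc2a5 and Elovl3 were named for their large fold changes in this comparison, and Thrsp after its values were seen. The share of all genes without overlap between lean and obese libraries was not computed. Slc2a5 (ENSMUSG00000028976, chromosome 4, 150119283 to 150144169), a fructose transporter, was 53.0 to 145 CPM in the 10 lean and 0 to 0.543 CPM in the 13 obese libraries (log2 difference 9.22, SE 0.495, adjusted p = 4.4e-09). Thrsp, a nuclear regulator of lipogenesis, was at or above 2439 CPM in lean and 34.6 to 294 CPM in obese libraries (4.87, SE 0.340, adjusted p = 2.43e-08). Elovl3, a fatty acid elongase of thermogenic fat, was 7.40 to 82.8 CPM in lean and at most 1.08 CPM in obese libraries (7.24, SE 0.775, adjusted p = 2.88e-05). These gene levels did not overlap between lean and obese mice under either antibody, while within lean mice the antibody groups overlapped in all 3.

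Genes of enlarging fat tissue were low in lean mice. Mest, an imprinted gene that marks fat cell enlargement, stood at 15.99, 23.7, 9.16, 3.07 and 48.4 CPM with IgG2a and 1.49, 97.5, 6.24, 1.04 and 7.04 with anti-PD-1, and at 115 to 2714 CPM in obese libraries (-5.28, SE 0.677, adjusted p = 1.44e-04). Sfrp5, a secreted Wnt inhibitor of fat cells, stood at 1.80 to 26.7 CPM with IgG2a and 0 to 4.38 CPM with anti-PD-1, against 53.4 to 992 CPM in obese libraries (-6.73, SE 0.610, adjusted p = 5.82e-06). Of the 10 expansion genes 8 were lower in lean mice and 0 higher (median -3.60).

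Also lower were 6 of 14 inflammatory, 5 of 12 neutrophil, 8 of 10 tumor-linked and 6 of 12 complement genes, and 2 complement genes were higher. Of all genes, 10.6% were called lower and 8.15% higher, and the count of all genes called differed between the 35 fits. Across the 35 fits the lower genes numbered 2 to 7 for inflammatory, 0 to 7 for neutrophil (0 among libraries with low B cell scores), 3 to 8 for tumor-linked and 3 to 9 for complement genes. The tumor-linked score was 1.18 to 2.19 in lean and 1.16 to 6.44 in obese libraries, highest in obese IgG2a 5 and 2. Obese IgG2a 5 also had the highest liver score, at 8.72. Without obese IgG2a 2 the tumor-linked genes called lower numbered 6, and without obese IgG2a 5 they numbered 7. Fkbp5 was lower in lean mice (-1.24, SE 0.135, adjusted p = 1.97e-06), and Cpt1a differed by -1.08 (adjusted p = 9.87e-06), alone of its list. Among PD-1 axis genes Vsir was lower in lean mice (-0.99, SE 0.171, adjusted p = 3.97e-04) and the other 14 were not called. Of 18 T cell genes 0 were called. Across the 35 fits up to 17 of the 18 T cell genes were called higher and up to 5 lower, so this group had no settled direction between lean and obese mice.

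Epithelium and muscle moved with lean status as well. In lean mice 12 of 16 epithelial genes were higher (median 1.39), where 8.15% of all genes were. Across the 35 fits 1 to 15 epithelial genes were called higher and up to 2 lower, with medians of 0.27 to 1.78. Muscle genes were higher in 10 of 13 (median 4.36), but in 1 of 13 without IgG2a 1 and in 5 without anti-PD-1 2. With the muscle score as a covariate, 22 respiratory chain genes were called higher. The part of muscle tissue in the respiratory chain difference was not tested beyond this fit. Matrix genes, 7 of 20 lower in lean mice, had 12 higher and 1 lower among high-B libraries, where 11.3% of all genes were called higher and 8.27% lower.

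**Figure D4:**
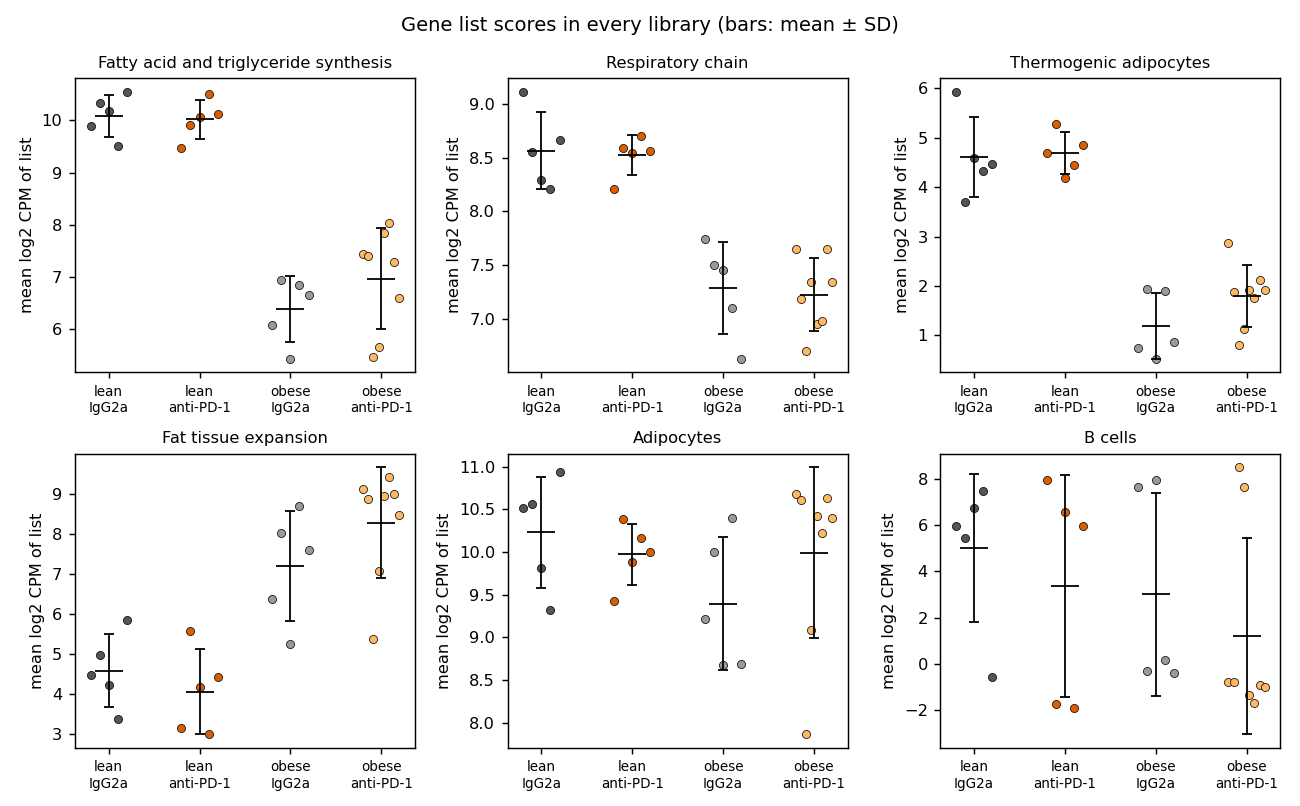
Scores of 6 gene lists (mean log2 CPM of the members, y axis) in every library by group (x axis), with the mean and SD as bars. Lean libraries lie above all obese ones for fatty acid synthesis, respiratory chain and thermogenic genes, mostly below them for fat tissue expansion, and overlap them for adipocyte and B cell genes, while both lean groups overlap in each list.

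The most abundant transcripts of the lean fat pad stood under names of predicted nuclear genes that match the mitochondrial genome. Of the 15 highest genes by TPM, 7 were unprocessed pseudogenes in 1 stretch of chromosome 1 (24611535 to 24616197, minus strand). Gm29216 (ENSMUSG00000101249, 24615706 to 24616197) came first, at 69418 ± 12550.0 TPM (SD, n = 10 lean libraries), followed by Gm28661 at 43628 ± 14219.6 TPM. No gene of the mitochondrial genome was listed in the files. Aligned to the mitochondrial genes of the reference, 5 of the 7 were identical over their whole length, to parts of mt-Co2, mt-Atp6, mt-Co3, mt-Nd4l and mt-Nd4. Gm28438 matched mt-Nd3 at 99.7% and Gm29216 matched mt-Co1 at 99.8% over 483 bases, each with 1 mismatch.

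The stretch that holds the single mismatch of Gm29216 is shown with its mitochondrial counterpart, 5′ to 3′ along the gene, from the reference transcripts (GRCm38, GENCODE M21), with the differing base in capitals. Bases 10 to 69 of Gm29216 and bases 1063 to 1122 of mt-Co1 are given.
Gm29216: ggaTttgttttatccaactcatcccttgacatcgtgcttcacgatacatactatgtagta
mt-Co1: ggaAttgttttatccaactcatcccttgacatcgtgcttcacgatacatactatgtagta
With 1 difference in 60 bases here and none in most of the group, counts under these names cannot be told apart from counts of mitochondrial RNA.

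The 7 genes together held 6.73% to 9.11% of the estimated counts in lean IgG2a libraries and 5.89% to 14.52% in lean anti-PD-1 libraries, of which anti-PD-1 4 was the highest. The means were 7.75% ± 0.94 and 8.76% ± 3.42 (SD, n = 5 each), a difference of 1.01 percentage points that did not pass an exact two-sided permutation test (p = 0.722). In the 13 obese libraries the share of counts was 1.94% to 4.88%, below every lean library. The lean mean was 8.26% ± 2.43 and the obese mean 3.17% ± 0.74, a difference of 5.09 points with a two-sided permutation p of 2e-05, the smallest that 100000 permutations can give. The direction was that of the nuclear respiratory chain genes. By TPM the 7 genes held 18.27% to 27.63% in lean IgG2a and 17.43% to 37.27% in lean anti-PD-1 libraries. In obese libraries they held 6.31% to 20.1% with IgG2a and 8.4% to 15.34% with anti-PD-1. By that measure the lean and obese libraries therefore overlapped. RNA of the libraries was accepted at an integrity number above 5 per the labels, and whether integrity differed between the groups was not tested.

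**Figure D5:**
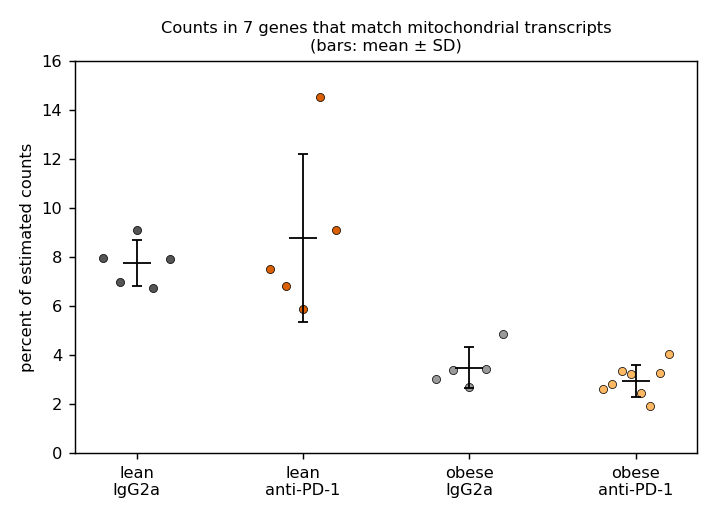
The y axis gives the percent of a library's estimated counts that fell in the 7 nuclear genes matching mitochondrial transcripts, by group on the x axis, with the mean and SD as bars. All 10 lean libraries, at 5.89% or more, lie above the 13 obese ones, at 4.88% or less, and 1 lean anti-PD-1 library stands at 14.52%.

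Whether the antibody acted differently in lean and obese fat pad was tested as an interaction, in which each weight group has its own IgG2a control. Of 19882 genes 0 were called (0%), with a smallest adjusted p of 0.396, and 1449 (7.29%) had an unadjusted p under 0.05, 4.35% higher and 2.94% lower. Only 20.2% of its intervals lay within -1 to 1, so it was less precise than the lean comparison alone. DESeq2 called 50 genes, voom 629 and limma-trend on TPM 0. The obese groups were uneven, with tumor-linked scores of up to 6.44 with IgG2a and up to 3.56 with anti-PD-1. In the interaction 12 of 12 liver and 5 of 10 tumor-linked genes were higher at an unadjusted p under 0.05. The part of this unevenness in the obese antibody differences below was not tested. Nxn, the redox protein nucleoredoxin (ENSMUSG00000020844, chromosome 11, 76257198 to 76399140), stood at 26.1, 27.6, 23.9, 23.4 and 22.96 CPM in lean IgG2a and 28.0, 37.2, 28.4, 27.8 and 33.9 CPM in lean anti-PD-1 libraries. The lean anti-PD-1 libraries were all higher (0.33, SE 0.251, 95% interval -0.19 to 0.85). In obese mice it fell with anti-PD-1 (-1.07, SE 0.226, adjusted p = 0.0375), from 21.0 to 76.9 CPM with IgG2a to 14.7 to 26.9 CPM. The interaction was 1.40 (SE 0.337, 95% interval 0.70 to 2.10, adjusted p = 0.396).

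Spsb1 differed in the opposite sense, at -0.70 in lean and 0.55 in obese mice (interaction -1.25, SE 0.336, 95% interval -1.95 to -0.56, adjusted p = 0.396). Lep differed by -0.71 in lean and 1.70 in obese mice (interaction -2.42, SE 0.980, 95% interval -4.45 to -0.39, adjusted p = 0.645). For Pdcd1 the interaction was 1.89 with an SE of 2.31, so neither a shared nor a separate effect of the antibody on its own receptor's transcript was resolved.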

How the data were processed

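The 10 lean and 13 obese libraries were poly(A)-selected RNA from fat next to the tumor, made with a kit that does not mark strand, per the labels' protocols, so a gene and an overlapping antisense gene cannot be told apart. Per the file headers, the authors deposited for each library an estimated count of reads and a TPM value for every transcript. The submitters' processing notes name GRCm38, edgeR and limma. Which quantification tool was run goes unnamed in the labels and headers. Estimated counts were summed per gene with the GENCODE M21 annotation (114200 of 115088 transcripts matched; the other 888 held at most 0.208% of a library's counts) and rounded to whole numbers.

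Genes were kept by filterByExpr (minimum count 10), scaled with TMM, and fitted for all 23 libraries in 4 groups with edgeR 4.0.16 in R 4.3.3 (quasi-likelihood test, two-sided, Benjamini-Hochberg over all 19882 genes, called at an adjusted p under 0.05). The p-values and SEs in the text are from that fit unless named otherwise. DESeq2 1.42.0, limma 3.58.1 (voom, and trend on log2(TPM + 1), whose differences understate low genes), other filters, tissue scores as covariates, subsets and leaving out each library were alternatives. The fit was tested on simulated data. List scores are mean log2 CPM with a prior count of 2. The high-B libraries are the 11 whose B cell score lay above the widest gap (0.17 to 5.46).

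The members and the 43 lists (569 genes) were chosen with earlier results of these data known. Named genes were the 5 of smallest p in each direction at 1 CPM or more, a preset group of immune and fat genes, per list the 2 of smallest p and the one with the narrowest interval, the 15 highest by TPM, and the leading genes of the other comparisons. Outside this rule, Tsc22d3, Zbtb16, Ido1, Vsir, Thrsp, Hprt, Ckm, Cd79a, Ctla4, Lag3, B2m, H2-K1 and the other Hist2h3 copies were chosen after their values were seen. Some genes that the rule names are not reported here.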

Additional observations from a re-analysis of the deposited data

Results flagged for a closer look

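Of 170 groups of values from 68 genes and the list scores, 18 held a library far from the rest of its group by Dixon's criterion. Its chance rate of about 1 in 20 assumes normally distributed values, which was not tested for these CPM. Some of the genes were also chosen after their values were seen. The 18 therefore cannot be read against that rate. In lean anti-PD-1 mice, library 2 stood apart for Ifit3 (202.2 CPM, next 62.9), Col12a1 (20.69, next 6.96), Lgals3 (418.4, next 122), Lep (319.3, next 96.3) and Mest (97.52, next 7.04). Library 4 stood apart for Ccdc34 (40.35 CPM, next 17.7) and Pi16 (60.08, next 7.18). Library 1 stood apart for Ifng (1.287 CPM, next 0.151) and Tsc22d3 (143.0, next 75.2). Libraries 2 and 4 are the lean anti-PD-1 libraries with low B cell scores.

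In lean IgG2a mice the highest values that stood apart were Ckm in library 1 (573.5 CPM, next 50.4), Ltf in library 2 (188.9, next 70.0) and Sfrp5 in library 5 (26.73, next 8.90). The B cell score of library 5 was the lowest, at -0.57 against 5.46 or more.

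In obese anti-PD-1 mice Ucp1 was 5.217 CPM in library 1 (next 0.543), Fkbp5 152.5 CPM in library 2 (next 105) and Ido1 129.1 CPM in library 8 (next 51.3). In obese IgG2a mice library 4 held Mest at 1544 CPM (next 514) and Vsir at 268.0 CPM (next 207).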

How the results depend on the processing

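For anti-PD-1 against IgG2a in lean fat pad, where edgeR called 0 genes, DESeq2 called 22, voom 1, a fit to the 12 libraries with a low B cell score 2 (only 1 lean IgG2a library against 2 anti-PD-1, the lone library assumed to vary like the other groups) and a fit to the 10 lean libraries 1, and leaving out each library gave 0 to 0. The difference of the anti-PD-1 effect between lean and obese fat pad (0 called) had 50 calls with DESeq2 and 629 with voom, and 0 to 1 when each library was left out, the 1 without obese IgG2a 4. The comparison of lean against obese fat pad (3731 called, 43.4% of them higher in lean) had 8193 calls with voom, 5807 with log2(TPM + 1) (14.2% higher), 1917 with the muscle score as covariate (56.8% higher) and 6280 with the epithelium score. In high-B libraries 57.8% of the calls were higher. Leaving out each library gave 2991 (without lean IgG2a 1) to 4509 (without obese IgG2a 1). Genes bounded around no change in lean fat pad numbered 6885 to 7613 without 1 lean library each. The cause of these differences was not tested. Hist2h3c1 passed the threshold with DESeq2, voom and lean libraries alone, and Fkbp5 with DESeq2. No paired analysis was possible because replicate numbers follow accession order and pair no libraries. Depth and spread limit genes under 1 CPM, where 95% of intervals reach a 4-fold change.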
